A study of Homo sapiens with 30 samples.

Results

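The response of A549 cells to 3 h of dexamethasone after 7 days of the PRMT5 inhibitor GSK591 was measured by PRO-seq, over all genes of the deposited count table. A549 is an established human lung adenocarcinoma line of epithelial origin, and PRO-seq maps the positions of RNA polymerases that are engaged in transcription, so the values follow nascent transcription rather than stored mRNA. The comparison takes 4 of the 30 libraries of the series: 2 libraries of cells given 1 µM GSK591 for 7 days and then 100 nM dexamethasone (Dex) for 3 h, and 2 libraries of cells given 1 µM GSK591 for 7 days without Dex. All 4 carry the inhibitor, and the vehicle is DMSO at 0.01%. The response of cells without inhibitor (2 libraries with 100 nM Dex for 3 h and 2 untreated libraries, which the labels give as 15 min and not 3 h) and 2 libraries taken 15 min after Dex in cells given GSK591 for 7 days served for comparison. Cells given 1 µM of another inhibitor, MS023, for 7 days were also compared. These were 2 libraries with 100 nM Dex for 3 h and 2 without Dex. Members were chosen by sample label alone, and 22919 of the 58780 genes in the table had enough counts to be tested. The labels number the replicates but do not say that they came from separate cultures, so the spread between replicate libraries may be technical. The p-values rest on this spread as estimated in a single model of all 30 libraries, not on the compared libraries alone.

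The glucocorticoid receptor, encoded by NR3C1, is a nuclear receptor held by chaperones in the cytoplasm until it binds a steroid such as Dex. It then enters the nucleus, binds palindromic DNA elements near genes such as FKBP5, TSC22D3 and PER1 to raise their transcription, and lowers transcription of many inflammatory genes served by NF-kB and AP-1. In lung epithelium this is the basis of the use of glucocorticoids against inflammation. PRMT5 is the main enzyme of symmetric arginine dimethylation, acting on spliceosomal Sm proteins, histones and transcription factors, and GSK591 blocks its activity rather than its transcription.

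Total counts of the 4 libraries lay between 9486370 and 11969444. Mitochondrial genes took 71.1% to 78.7% of them, which left 2553476 to 2862947 counts for other genes. Levels are given in CPM, the counts of a gene per library size in units of 1e+06 after scaling by the trimmed mean of M-values (TMM). Across genes, log2 levels of replicates correlated with r = 0.973 in GSK591 without Dex and r = 0.968 after 3 h of Dex (a description across genes, which are not independent replicates). The epithelial markers EPCAM, KRT8, KRT18, KRT7 and CDH1 were all detected. They summed to 463 to 476 CPM without Dex and 644 to 718 CPM with it, most of it from the keratins. EPCAM was low, at 1.16 and 1.74 CPM without Dex and 0.993 and 1.26 CPM with it. Its log2 change of -0.35 and that of CDH1, 0.32, did not pass the test. Leukocyte markers summed to 3.89 to 5.58 CPM without Dex and 1.95 to 2.76 CPM with it, chiefly CD14, which was called lower. Fibroblast markers summed to 5.49 to 8.14 CPM and 5.50 to 5.51 CPM, and endothelial markers to 0.80 to 1.39 CPM and 0.88 to 2.06 CPM. Markers of alveolar type 2 cells summed to 21.0 to 24.4 CPM without Dex and 26.7 to 30.3 CPM with it. No marker was at 0 in all 4 libraries, and the part of other cells in the results was not tested; in bulk samples, fewer cells of a type and less RNA per cell cannot be told apart.

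Transcription of 2258 genes changed 3 h after Dex in cells given GSK591, 9.85% of those tested (edgeR quasi-likelihood test, Benjamini-Hochberg adjusted p under 0.05, called below). Of these, 1236 rose (5.39% of genes tested) and 1022 fell (4.46%). The median size of a rise was 0.92 on the log2 scale (quartiles 0.64 and 1.41) and that of a fall 0.88 (quartiles 0.62 and 1.34), so the typical called gene changed by less than 2-fold. Rises of at least 4-fold, a log2 change of 2, were found for 156 genes and falls of that size for 129. Both Dex libraries lay above both libraries without Dex for 1236 of 1236 genes called higher and below them for 1021 of 1022 called lower, GALNT13 being the exception (named after its values were seen). Such separation in either direction was found for 50.6% of all genes tested, so it is weak evidence for a single gene. Protein-coding genes made up 79.6% of the higher and 76.2% of the lower calls against 65.4% of genes tested. The number of calls fell to 1201 without GSK591 replicate 1, 1475 without GSK591 replicate 2, 1365 without Dex replicate 2 and 1609 without Dex replicate 1, and was 1374 with DESeq2. Scaling by total counts alone, which moved the median gene by 0.21 on the log2 scale against 0.00 under TMM, gave 1363 calls of which 80.9% were higher, against 54.7% under TMM; directions of small changes below are therefore relative to the typical gene.

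The targeted enzyme and the receptor were checked in each library. PRMT5, whose transcription the inhibitor is not designed to block, stood at 7.56 and 8.98 CPM without Dex and 6.07 and 6.30 CPM with it, a log2 change of -0.41 (SE 0.209) that did not pass the test (adjusted p = 0.236, edgeR), so these counts do not check whether the inhibitor worked. NR3C1 (chr5:143277931-143435512, minus strand, hg38) read 50.2 and 49.2 CPM without Dex and 32.6 and 32.0 CPM with it. Its Dex libraries lay well below the others, a 1.54-fold fall (log2 change -0.62, SE 0.116, adjusted p = 0.000103, edgeR). Under scaling by total counts the change was -0.42 and did not pass the test (adjusted p = 0.311, against 4.8e-05 to 0.00482 under the other alternatives). Without inhibitor NR3C1 changed by -0.35, and the difference between the responses did not pass the test (-0.27, SE 0.163, adjusted p = 0.681).

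Most classic induced genes of the receptor were called higher. Of 24 such genes tested, 17 rose, none fell and 7 did not pass the test, with a median log2 change of 1.27 against 0.00 over all genes. FKBP5 (chr6:35573585-35728583, minus strand), a co-chaperone that lowers the receptor's hormone binding, read 2.44 and 4.02 CPM without Dex, 9.15 and 8.95 CPM at 15 min and 33.6 and 37.4 CPM at 3 h. Its levels rose at each time without overlap, and at 3 h they were 11.1-fold above those without Dex (log2 change 3.47, SE 0.300). TSC22D3 (chrX:107713221-107777342, minus strand), which encodes the anti-inflammatory protein GILZ, went from 14.3 and 15.3 CPM to 121 and 108 CPM, a 7.74-fold rise (SE of the log2 change 0.136, adjusted p = 1.93e-22). PER1 (chr17:8140472-8156506, minus strand), a clock gene, went from 5.81 and 6.70 CPM to 39.6 and 42.8 CPM, a 6.59-fold rise. In the tables that the authors deposited, the log2 fold change of the GSK591 and Dex group minus that of the GSK591 group, each against untreated cells, was 4.42 for FKBP5 and 3.58 for TSC22D3, from another counting than the count table.

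Among the other classic genes, ALOX15B, a lipoxygenase of arachidonic acid, had 4 and 0 counts without Dex and 48 and 46 with it. It was called, with a fitted log2 change of 4.35 that came to 8.79 without GSK591 replicate 1 and 3.47 without replicate 2, so its size is poorly determined. ZBTB16, a zinc finger repressor, had 1 and 0 counts without Dex and 12 and 11 with it, and its call was lost without GSK591 replicate 2. KLF9, a receptor-induced transcription factor, read 12.7 and 14.7 CPM without Dex and 32.0 and 21.9 CPM with it (log2 change 0.98). Both metallothioneins on the list rose: MT2A, which binds zinc and copper, from 9.42 and 8.44 CPM to 35.8 and 32.9 CPM and MT1X from 15.1 and 12.1 CPM to 40.3 and 36.7 CPM. SGK1, a kinase that keeps sodium channels at the membrane, rose by 0.87, and CRISPLD2, a secreted protein, was at -0.79 and did not pass the test.

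**Figure D1:**
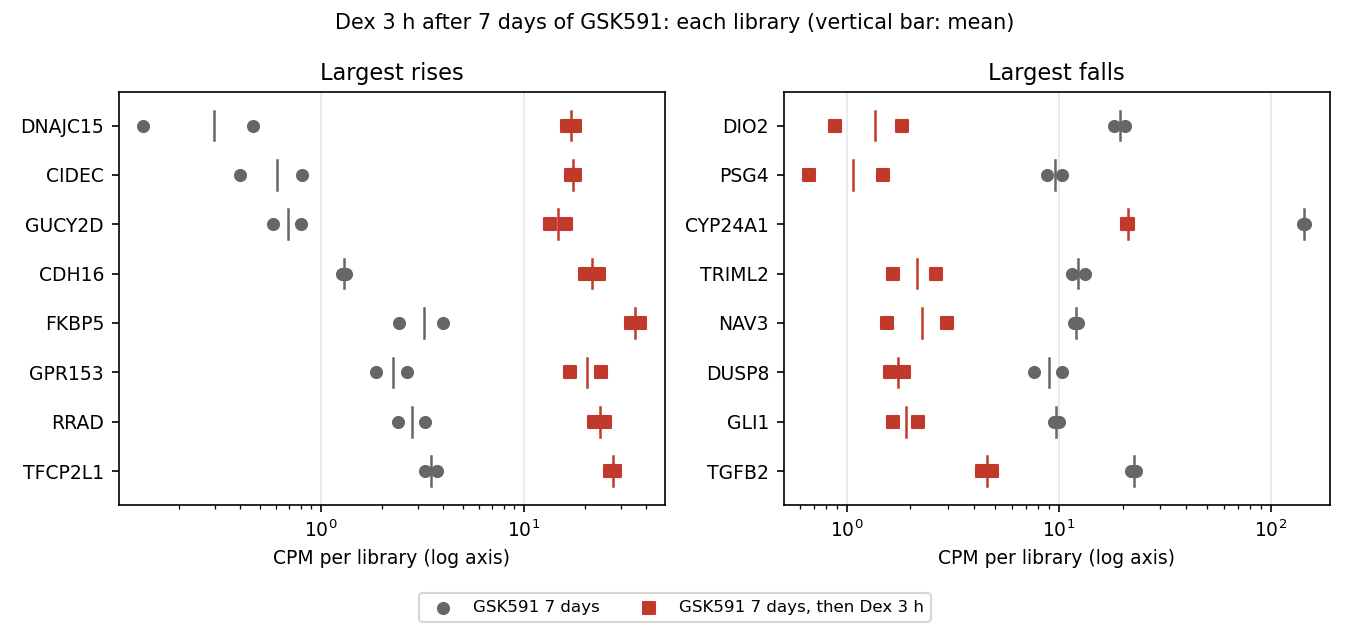
CPM per library on a log axis for the 8 largest rises and the 8 largest falls among called protein-coding genes averaging 5 CPM or more; gray circles are GSK591 for 7 days, red squares GSK591 and then 3 h of Dex, and vertical bars are means of 2 libraries. Only genes whose libraries were apart between the groups could be drawn, so the separation shown follows from the choice. Levels run from DNAJC15 (0.134 and 0.465 CPM against 16.3 and 18.0 CPM) to TGFB2 (22.0 and 23.1 CPM against 4.36 and 4.85 CPM).

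The largest rises among genes averaging 5 CPM or more were in genes outside the classic list as well as within it. DNAJC15 (chr13:43023203-43114224, plus strand), a co-chaperone of the mitochondrial inner membrane, had 4 and 1 counts without Dex (0.465 and 0.134 CPM) and 163 and 142 counts with it (18.0 and 16.3 CPM). The Dex libraries were far above the others, with a log2 change of 5.73 (SE 0.443), or 6.88 without GSK591 replicate 1. CIDEC (chr3:9866711-9880254, minus strand), a lipid droplet protein, went from 0.814 and 0.402 CPM to 17.1 and 18.0 CPM, a 27.7-fold rise (log2 change 4.79, or 5.41 without GSK591 replicate 1). GUCY2D, a membrane guanylate cyclase known from photoreceptors, went from 0.581 and 0.804 CPM to 16.2 and 13.4 CPM. CDH16, a kidney cadherin, read 1.28 and 1.34 CPM without Dex and 23.5 and 20.1 CPM with it, a 16.5-fold rise. GPR153, an orphan receptor, rose 8.89-fold, RRAD, a small GTPase of the RGK family that restrains calcium channels, 8.27-fold, and TFCP2L1, a grainyhead-related transcription factor, 7.85-fold. RRAD lies next to CDH16 on chr16 (CDH16 ends at 66918984 and RRAD starts at 66921679), and both rose.

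The largest falls were led by DIO2 (chr14:80197527-80387757, minus strand), the deiodinase that activates thyroid hormone, which went from 20.5 and 18.2 CPM to 0.882 and 1.83 CPM. The fall was 14.2-fold (log2 change -3.83, SE 0.272), or -4.44 on the log2 scale without Dex replicate 2, the higher of the Dex libraries. CYP24A1 (chr20:54153449-54173973, minus strand), the enzyme that breaks down active vitamin D, was the most precisely measured of them, with 1213 and 1080 counts without Dex and 191 and 186 with it (141 and 145 CPM against 21.1 and 21.3 CPM). It fell 6.74-fold (log2 change -2.75, SE 0.144), and the corresponding difference in the authors' deposited tables was -4.59. PSG4, a pregnancy-specific glycoprotein, went from 10.3 and 8.84 CPM to 0.662 and 1.49 CPM (log2 change -3.15, or -3.84 without Dex replicate 2). TRIML2 and NAV3 fell 5.76-fold and 5.35-fold, NAV3 being a microtubule-binding protein. Signalling genes were among the falls: DUSP8, a phosphatase of JNK and p38, fell 5.11-fold, GLI1, a transcription factor of the hedgehog pathway, 5.08-fold, and TGFB2, a TGF-beta ligand, 4.89-fold.

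Many genes that restrain inflammatory signalling were called higher. Of 14 feedback inhibitors tested 9 rose, and SOCS2, a suppressor of cytokine signalling, fell (log2 change -1.36); the median was 0.95. IRAK3, which blocks signalling from Toll-like receptors, had 3 and 5 counts without Dex and 32 and 43 with it (log2 change 3.05, SE 0.467). ZFP36, which destabilizes cytokine mRNAs, read 65.7 and 71.7 CPM without Dex and 231 and 243 CPM with it, a 3.45-fold rise with well separated libraries. RGS2, a brake on G-protein signalling, rose 3.52-fold, NFKBIA, the inhibitor of NF-kB, by 1.31 on the log2 scale and TNFAIP3, a ubiquitin-editing enzyme, by 1.06. ANXA1, a glucocorticoid-linked protein of membranes, was at -1.04 and did not pass the test.

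Of 14 cytokine and chemokine genes tested, 7 fell and none rose, with a median of -0.68. CXCL8, the neutrophil chemokine interleukin 8, had 29 and 32 counts without Dex and 2 and 2 with it (3.37 and 4.29 CPM against 0.221 and 0.229 CPM), the largest fall on the list (log2 change -4.01, SE 0.534). CXCL1, a related chemokine, went from 22.7 and 25.2 CPM to 11.0 and 8.48 CPM and LIF, a cytokine of the interleukin 6 family, from 17.1 and 19.4 CPM to 7.06 and 8.14 CPM. Both fell about as much, by 1.29 and 1.26 on the log2 scale. CX3CL1 was called lower (-1.31), but not without any of GSK591 replicate 1, GSK591 replicate 2 or Dex replicate 2. CCL20, a chemokine for dendritic cells, was at 1.81 and did not pass the test, and IL6, IL1A, CSF2, TNF and TSLP had too few counts to be tested.

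Of 10 genes of NF-kB subunits and receptors 3 fell and none rose. RELB, a subunit of the non-canonical pathway, read 7.90 and 6.83 CPM without Dex and 4.08 and 1.83 CPM with it, a log2 change of -1.31 that came to -0.86 and lost its call without Dex replicate 2 and came to -2.01 without Dex replicate 1. NFKB2, which encodes its partner p52, fell 2.33-fold, from 20.3 and 25.2 CPM to 8.60 and 10.9 CPM, and MAP3K8, a kinase of the same pathways, by 0.69 on the log2 scale, a call lost under scaling by total counts. RELA and NFKB1 of the canonical pathway were at -0.14 and -0.43 and did not pass the test, and the median of the list, -0.16, became 0.04 under scaling by total counts.

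Immediate early genes split in direction. Of 13 tested, 7 fell and 2 rose, and 4 were called under scaling by total counts. JUN, a subunit of the AP-1 factor, read 89.2 and 90.5 CPM without Dex and 36.7 and 35.0 CPM with it, a 2.50-fold fall, and EGR1, a zinc finger factor of growth signalling, fell 2.88-fold. FOS, a partner of JUN, went the other way, from 33.1 and 36.3 CPM to 64.1 and 64.0 CPM (log2 change 0.88), as did JUNB, from 58.0 and 59.2 CPM to 111 and 96.7 CPM. MYC, a growth regulator also counted here, was called lower at -0.57, a call lost under scaling by total counts and without Dex replicate 2. The dual specificity phosphatases, which switch off MAP kinases, likewise split: DUSP1 rose from 240 and 247 CPM to 422 and 377 CPM (log2 change 0.72), while DUSP4 fell from 249 and 267 CPM to 123 and 124 CPM, DUSP5 from 50.6 and 50.7 CPM to 29.2 and 19.1 CPM, and DUSP8 as above. The call of DUSP5 was lost under scaling by total counts.

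Some regulators of transcription were also called. For steroid receptors and coregulators the share called, 12.5%, was near the 9.85% of all genes tested. Of 16 KLF and C/EBP genes, 3 rose, with CEBPB, a factor of the acute phase, going from 48.1 and 46.2 CPM to 124 and 86.1 CPM and KLF6 from 58.0 and 56.3 CPM to 95.9 and 94.2 CPM. KLF2 was the only member called lower (-0.73), a call lost without Dex replicate 2 and under scaling by total counts. Of 16 clock genes, 3 rose and 3 fell. Beside PER1, CRY2, a repressor of the clock, rose by 1.07, while CRY1, its close relative, fell from 5.70 and 5.36 CPM to 2.32 and 1.49 CPM. BHLHE40 and BHLHE41, which encode related repressors of the clock, were both called lower, at -1.08 and -1.48, and the second call was lost without Dex replicate 1. The call of BHLHE41 was also lost with DESeq2 and under scaling by total counts. Its corresponding difference in the authors' deposited tables was 0.01. CIART, another clock repressor, was called higher at 1.93, with 4 and 10 counts without Dex; the value was 1.33, and the call lost, without GSK591 replicate 1, and 2.82 without replicate 2. Among 16 steroid receptors and coregulators only NR3C1 and NR2F1, an orphan receptor, were called, both lower; the count was 1 with DESeq2 or without GSK591 replicate 1 and 0 under scaling by total counts. The call of NR2F1 (-0.86) was lost in each of these fits and without Dex replicate 2. Among 14 chaperones of the receptor 5 rose, among them HSPA8 and HSPA1A, chaperones of the HSP70 family, which rose 1.62-fold and 1.49-fold; without Dex replicate 1 the count was 3. HSP90AA1 and HSP90AB1, which hold the receptor, were at 0.23 and -0.34 and did not pass the test.

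**Figure D2:**
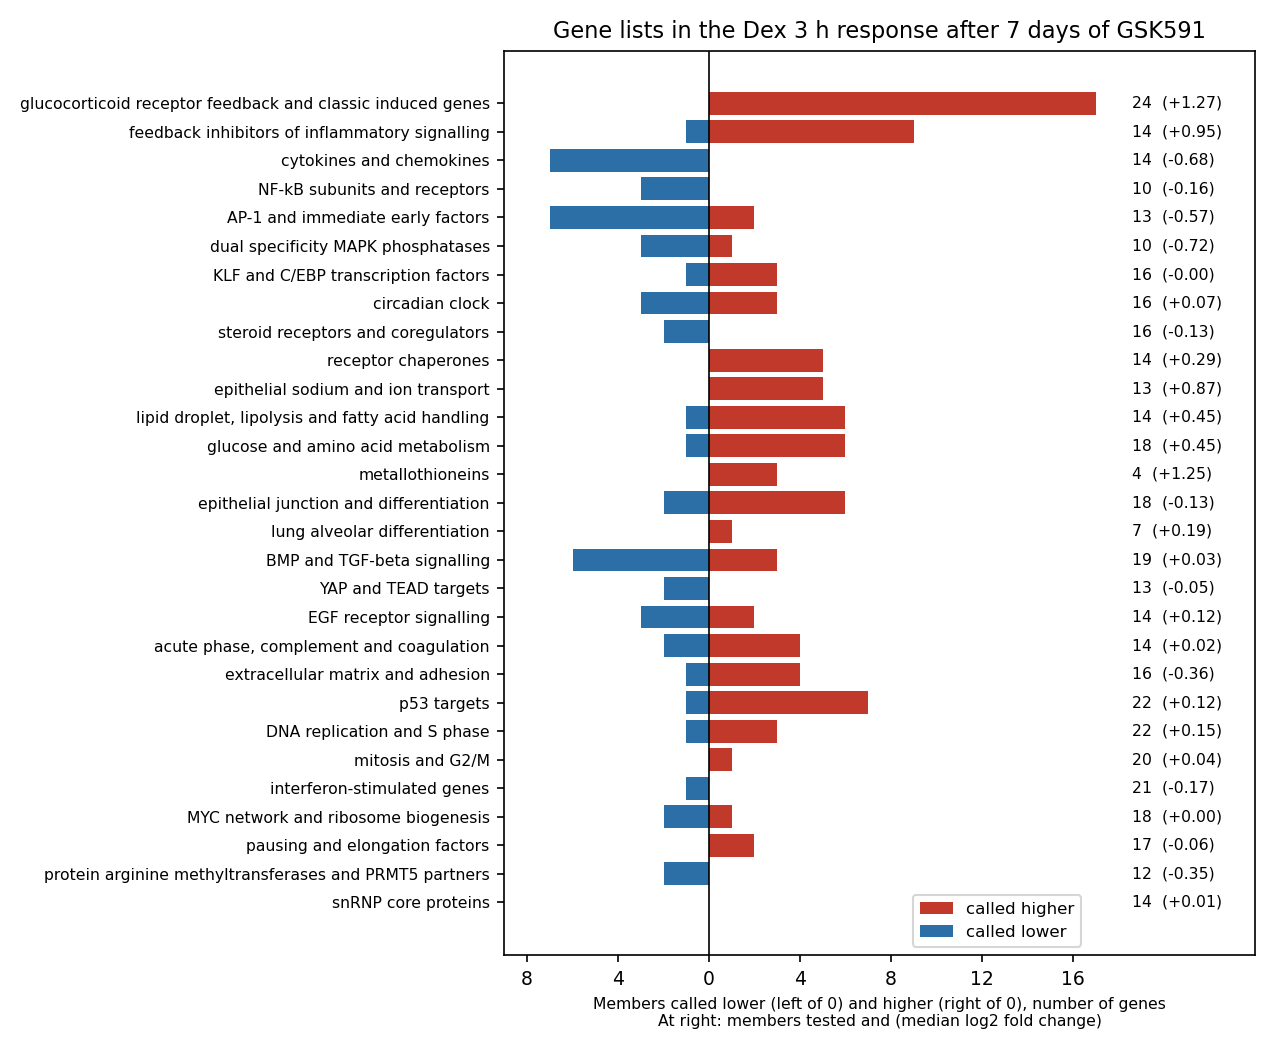
Number of members called higher (red, right of 0) and lower (blue, left of 0) in each of 29 gene lists, with the number of members tested and the median log2 fold change at the right. Classic induced genes (17 higher, 0 lower) stand at one end and cytokines (0 higher, 7 lower) at the other, against 5.39% of all tested genes called higher and 4.46% called lower.

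Genes of metabolism and transport mostly rose where they were called. Of 14 genes of lipid droplets and fatty acid handling, 6 rose and LPIN1, a phosphatidate phosphatase, fell (-0.86). ANGPTL4, an inhibitor of lipoprotein lipase, read 17.1 and 15.4 CPM without Dex and 69.9 and 78.2 CPM with it, a 4.55-fold rise. PDK4, which turns the cell from glucose to fatty acid oxidation, rose 3.98-fold from 5.23 and 6.43 CPM to 22.2 and 24.1 CPM, ACSL1, which activates fatty acids, 2.77-fold, and PLIN2, a coat protein of lipid droplets, by 1.38 on the log2 scale. Of 18 genes of glucose and amino acid metabolism, 6 rose and 1 fell, with 4 called without GSK591 replicate 2 and 4 without Dex replicate 1. GLUL, glutamine synthetase, went from 31.0 and 30.8 CPM to 53.6 and 56.2 CPM, and FOXO3, a factor of the fasting response, from 18.8 and 19.3 CPM to 36.4 and 33.6 CPM. SLC7A11, the cystine transporter, was the member that fell, from 46.7 and 50.1 CPM to 11.0 and 16.2 CPM (log2 change -1.83, SE 0.361), and its call was narrowly lost without Dex replicate 1 at a change of -1.58. TAT, tyrosine aminotransferase and a classic liver target of glucocorticoids, had 2 and 3 counts without Dex and 12 and 18 with it; it was called, but not without either GSK591 replicate or without Dex replicate 2.

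Ion transport genes rose in 5 of 13 cases and fell in none. SLC26A2, a sulfate transporter, rose 2.79-fold, and FXYD3, a small membrane protein that modulates ion transport, 3.23-fold, from 12 and 8 counts to 38 and 34. SCNN1B, a subunit of the epithelial sodium channel, had 3 and 4 counts without Dex and 11 and 18 with it, and its call was lost without either GSK591 replicate or without Dex replicate 2. The median of the list, 0.87, came to 0.33 without GSK591 replicate 1 and to 0.10 with the compared groups fitted alone, where 11 members were tested. Of 4 metallothioneins tested 3 rose, among them MT1F, whose call was lost in each fit that left out 1 of the 4 libraries.

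Of 18 genes of epithelial junctions and differentiation, 6 rose and 2 fell, and the median of -0.13 became 0.07 under scaling by total counts and 0.18 without GSK591 replicate 2. The claudins moved apart: CLDN7 rose from 11.0 and 11.0 CPM to 26.8 and 25.0 CPM, and CLDN1 fell from 17.1 and 13.1 CPM to 6.84 and 6.19 CPM. KRT7 and KRT8, keratins of simple epithelium and the bulk of the marker sums above, each rose by 0.57 on the log2 scale. All 7 alveolar genes with enough counts had values above 0, with a median of 0.19, and only SFTPC, a surfactant protein, was called. The share called was 14.3%, against 9.85% of all genes tested. SFTPC had 15 and 13 counts without Dex and 40 and 36 with it, a call lost with DESeq2 and without either GSK591 replicate or without Dex replicate 1.

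Of 19 genes of BMP and TGF-beta signalling, 3 rose and 6 fell, with 5 called under scaling by total counts and 4 without GSK591 replicate 1. Beside TGFB2, the BMP antagonist GREM1 fell from 6.16 and 6.30 CPM to 1.65 and 1.83 CPM and SMAD3, a signal transducer of TGF-beta, from 67.1 and 78.8 CPM to 32.6 and 32.2 CPM, falls of 3.56-fold and 2.25-fold. Of 14 genes of EGF receptor signalling, 2 rose and 3 fell; 3 were called without Dex replicate 2. The ligand EREG fell 3.00-fold from 8.72 and 8.17 CPM to 2.76 and 2.87 CPM, while the inhibitors ERRFI1 and SPRY1 rose 2.58-fold and 2.65-fold. Of 13 targets of the YAP and TEAD factors, CCN1, a matrix signalling protein, and NUAK2, a kinase, fell 2.01-fold and 1.89-fold and none rose. The share called in this list was 15.4%, against 9.85% of all genes tested.

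Of 14 acute phase and coagulation genes, 4 rose and 2 fell, with 3 called without GSK591 replicate 1. The complement component C3 went from 7.90 and 7.77 CPM to 22.1 and 23.4 CPM, a 2.89-fold rise, while PLAUR and PLAU, the urokinase receptor and its ligand, fell 2.25-fold and 1.77-fold; the call of PLAU was lost under scaling by total counts. SERPINA3, a protease inhibitor of the acute phase, had 2 and 2 counts without Dex and 9 and 16 with it, and its call was lost in each fit that left out 1 of the 4 libraries. Of 16 genes of the extracellular matrix, 4 rose, led by the integrins ITGB4 (2.24-fold) and ITGA5 (2.05-fold), and MMP2, a gelatinase, was called lower; without any of GSK591 replicate 2, Dex replicate 1 or Dex replicate 2 the list's count was 3. MMP2 had 29 and 10 counts without Dex and 4 and 4 with it, and its change of -2.38 came to -1.55 and lost its call without GSK591 replicate 1.

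Of genes that bear on the cell cycle, CDKN1A, the inhibitor p21 of cyclin-dependent kinases, rose from 32.9 and 24.0 CPM to 56.0 and 55.6 CPM (1.95-fold), and BTG2, an antiproliferative gene, from 33.9 and 32.2 CPM to 69.9 and 58.0 CPM. These belong to a list of 22 p53 targets of which 7 rose and 1, the stress cytokine GDF15, fell (log2 change -0.74, a call lost under scaling by total counts); without GSK591 replicate 1 the list's count was 4. MDM2 and BAX, among the best known p53 targets, were at 0.16 and 0.08 and did not pass the test. The share called was 36.4% for p53 targets, against 9.85% of all genes tested. For the lists described next it was 18.2% for replication, 5.0% for mitosis and 4.76% for interferon-stimulated genes. Of 22 replication genes 3 rose and 1 fell, and 2 were called in each fit that left out 1 of the 4 libraries; FEN1, the flap endonuclease, was the clearest, from 21.6 and 22.0 CPM to 47.8 and 47.6 CPM. Of 20 mitosis genes only CCNB2, a cyclin of mitosis, was called, at 0.48, and this was lost without GSK591 replicate 1, Dex replicate 1 or Dex replicate 2. Of 21 interferon-stimulated genes only IFIT2, an antiviral protein, was called, at -1.54, lost without GSK591 replicate 2 or Dex replicate 1; the count was 0 with DESeq2 or total counts, and 2 with the replicate number as a block or the compared groups fitted alone.

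Of 12 genes of arginine methyltransferases and PRMT5 partners, PRMT1, the main asymmetric dimethylating enzyme, fell from 37.8 and 41.3 CPM to 28.0 and 27.7 CPM (log2 change -0.50), and CLNS1A, a PRMT5 partner that presents Sm proteins, was called lower at -0.88. The first call was lost without GSK591 replicate 2, the second without GSK591 replicate 1 or Dex replicate 1, and both under scaling by total counts; 1 gene was called without GSK591 replicate 1 or Dex replicate 1. WDR77, the subunit that pairs with PRMT5, was at 0.38 and did not pass the test. The share called was 16.7% in this list, against 9.85% of all genes tested. It was also 16.7% in the list of the MYC network and ribosome biogenesis described below. None of 14 snRNP core and assembly genes was called by edgeR or DESeq2 (4 were at an unadjusted p under 0.05), and 1 was with the compared groups fitted alone, with values from -0.47 for SNRPE to 1.00 for GEMIN2. Of 17 pausing and elongation factors, 2 were called (11.8%), near the 9.85% of all genes tested. NELFCD, a subunit of the pausing complex NELF, was higher at 0.63. The corresponding difference for NELFCD in the authors' deposited tables was -0.08, of the opposite sign. HEXIM1, an inhibitor of P-TEFb, was higher at 0.41, a call lost without GSK591 replicate 1 or Dex replicate 1. Of 18 genes of the MYC network and ribosome biogenesis 1 rose and 2 fell, with 1 called in each fit that left out 1 of the 4 libraries.

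The receptor's palindromic element was looked for in promoters, here RefSeq windows (GRCh38.p14) from 250 bases before to 50 bases after each start of a gene. The relaxed motif searched was GNACA and TGTNC with 3 bases of any kind between them, and the full motif AGAACA and TGTTCT with the same spacing, which contains it; each is its own reverse complement, so both strands were covered. Of the 114 genes chosen by rule, FKBP5, TSC22D3 and PER1 among them, 89 had a window in the table and 0 of these held the relaxed motif. Only 40 of 13171 genes tested with a window held it, so 0 of 89 could hardly have come out otherwise. Elements outside these windows were not searched, so no lack of an element can be read from this. The relaxed motif was found in 4 of 1199 windows of genes called higher (0.334%) and 1 of 1033 windows of genes called lower (0.0968%). Among all genes tested it was in 45 of 18774 windows (0.240%), and in all in 137 of 35116 (0.390%). Only 803 of the 1236 genes called higher and 660 of the 1022 called lower had a window, under 80% of each, so a comparison of these shares is void. The full motif was found in 1 window in all, and in 0 of those of genes tested. The 4 matches among genes called higher are printed, chosen after their values were seen, as examples of the element searched; none of the classic targets described above is among them. Capitals mark the match, each run is 5′ to 3′ on the gene's strand and ends before the start site, and a match is a description and not a binding site.
CHST7 (chrX:46573515-46573553, plus strand): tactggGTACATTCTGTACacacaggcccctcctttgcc
CAMKK1 (chr17:3890744-3890787, minus strand): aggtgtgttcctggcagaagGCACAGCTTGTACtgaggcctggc
MAP3K6 (chr1:27367081-27367133, minus strand): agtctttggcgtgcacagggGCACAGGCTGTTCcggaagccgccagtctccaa
EEF2K (chr16:22206069-22206121, plus strand): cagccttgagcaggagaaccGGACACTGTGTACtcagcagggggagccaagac
CHST7, a sulfotransferase, went from 11.5 and 12.7 CPM to 25.5 and 23.7 CPM (log2 change 1.02). CAMKK1, a kinase activated by calcium and calmodulin, went from 9.18 and 9.92 CPM to 15.0 and 18.2 CPM. MAP3K6, a stress kinase, rose by 0.72 on the log2 scale and EEF2K, the kinase of elongation factor 2, by 0.66. All 4 rises were smaller than the log2 changes of FKBP5, TSC22D3 and PER1.

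The time course in cells given GSK591 asks which of these changes were already present 15 min after Dex. Between 15 min and 3 h, 3259 genes changed, 14.2% of those tested, 1844 upward (8.05%) and 1415 downward (6.17%, edgeR). The number was 1414 without 15 min replicate 2, 1799 and 2084 without the Dex 3 h replicates, and 1676 under scaling by total counts. The 15 min libraries differed in mitochondrial share, 78.2% and 69.8%, and their replicate correlation across genes was 0.960. This comparison shares the 3 h libraries with the main one, so the values of each gene are given side by side and no overlap is drawn from them.

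Members differed in when their counts changed. The genes differ in length, and the part of gene length in this timing was not tested. PER1 read 42.5 and 37.8 CPM at 15 min, the level it had at 3 h (change from 15 min to 3 h 0.04). DUSP1, at 425 and 372 CPM, and ANGPTL4, at 85.0 and 67.0 CPM, were likewise at their 3 h level by 15 min, with changes of 0.00 and -0.03 thereafter. KLF6 stood higher at 15 min, at 183 and 152 CPM, than at either other time and fell by 0.81 on the log2 scale from 15 min to 3 h. TSC22D3, at 68.7 and 52.6 CPM, and FKBP5 were part of the way, and rose by 0.92 and 1.97 afterwards. DNAJC15, GUCY2D and CDH16 were the largest late rises, with 0.956 and 0.192, 1.09 and 0.674, and 0.956 and 1.25 CPM at 15 min and increases of 5.03, 4.10 and 4.26 thereafter; that of DNAJC15 was 6.40 without 15 min replicate 1 and 4.15 without replicate 2. The largest late falls were those of DIO2 (-3.75, or -4.35 without Dex 3 h replicate 2), NAV3 (-2.76) and TRIML2 (-2.58), which at 15 min read 17.9 and 18.8, 13.9 and 16.5, and 9.43 and 15.8 CPM, within or near their levels without Dex. DUSP5 read 74.2 and 91.2 CPM at 15 min, above both its level without Dex and that at 3 h.

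**Figure D3:**
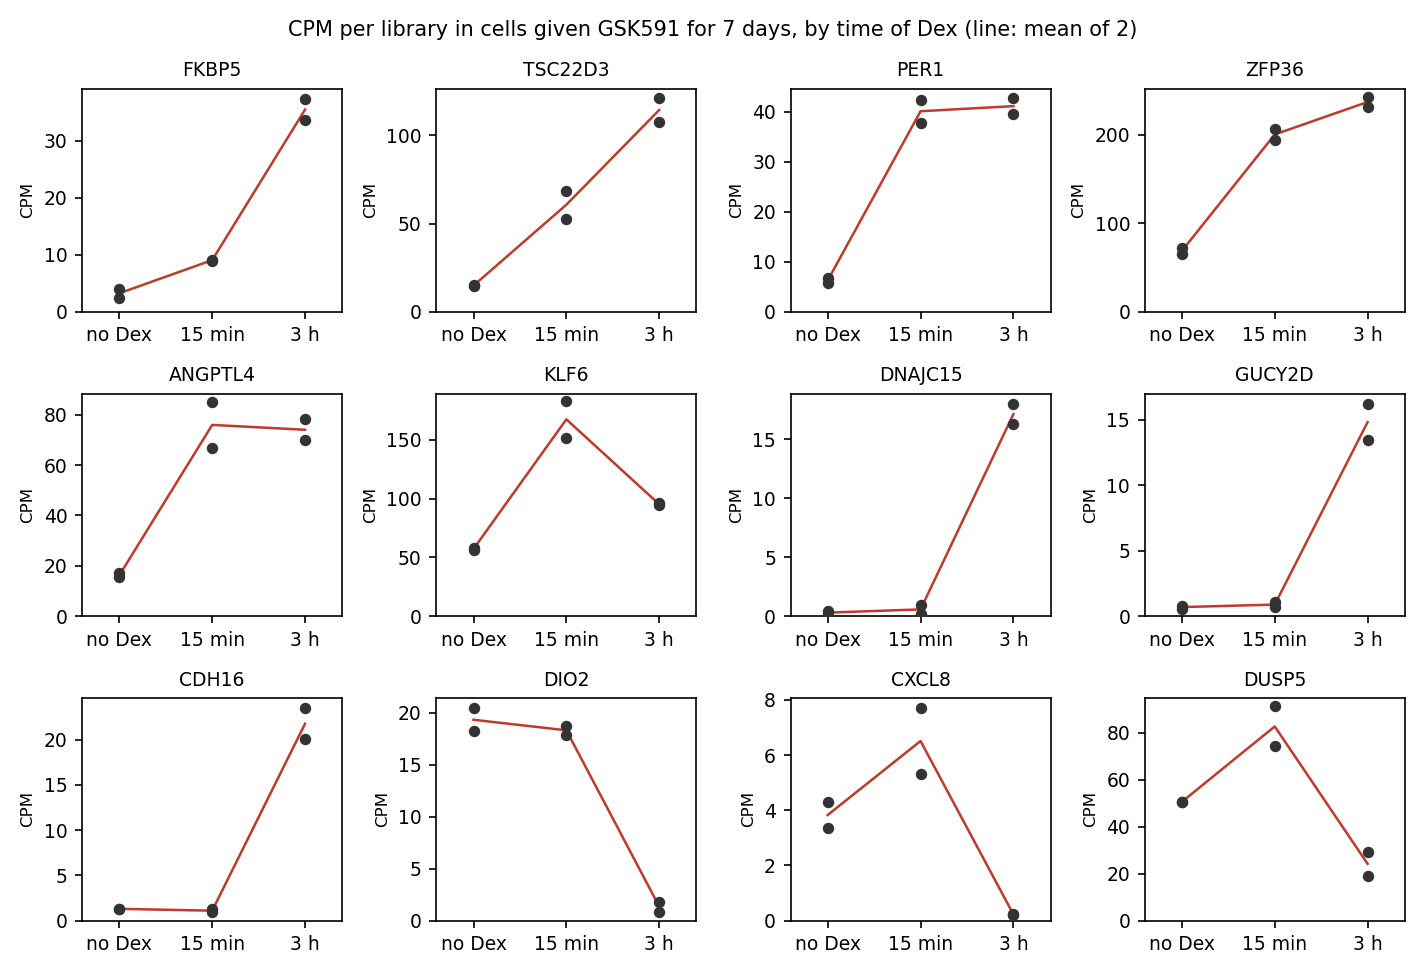
CPM per library (points; the line joins means of 2 libraries) in cells given GSK591 for 7 days, without Dex and after 15 min and 3 h of Dex, for 12 genes on separate axes from 0. PER1, ANGPTL4 and ZFP36 are near their 3 h level at 15 min, DNAJC15, GUCY2D and CDH16 rise after it, KLF6 and DUSP5 are highest at 15 min, and DIO2 and CXCL8 fall after it.

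The comparison with cells that had no inhibitor asks whether 7 days of GSK591 altered the Dex response. With Dex alone, 2410 genes changed (10.5% of those tested), 1400 upward (6.11%) and 1010 downward (4.41%), from 4 libraries that are not among those of the response after GSK591. Of these calls, 1125 were made in the same direction after GSK591, which is 49.8% of the calls after GSK591 and 46.7% of the calls with Dex alone. Over all genes tested, the shares called in either direction were 10.5% with Dex alone and 9.85% after GSK591. Of the genes that rose after GSK591, 95.1% had the same sign with Dex alone, with a median of 0.69 there, and of the genes that fell 90.9%, with a median of -0.55. These genes were chosen on the response after GSK591, so smaller medians with Dex alone cannot be read as a weaker response. The share with the same sign over all genes was not taken. Across 11085 genes averaging 5 CPM or more the responses correlated with r = 0.713, a description across genes. FKBP5, TSC22D3 and DIO2 changed by 2.90, 2.89 and -3.14 with Dex alone, and in none of them did the difference between responses pass the test. Of the genes called in both responses, 5 changed in opposite directions: ID3, ADM, H2BC3, H2AC4 and H3C10, named after their values were seen, each called higher with Dex alone and lower after GSK591. These calls depended on the fit. After GSK591, the call of H2BC3 was lost in 4 of 4 fits with a library left out, with DESeq2, with no filter and with the compared groups alone, those of H2AC4, H3C10 and ID3 in 3 of 4 fits, and that of ADM in 2 of 4, and all 5 under scaling by total counts. With Dex alone, the calls were lost in 2 or 3 of 4 fits with a library left out; no sign changed in these fits. ID3 is an inhibitor of bHLH factors, ADM the peptide adrenomedullin, and the other three encode histones.

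**Figure D4:**
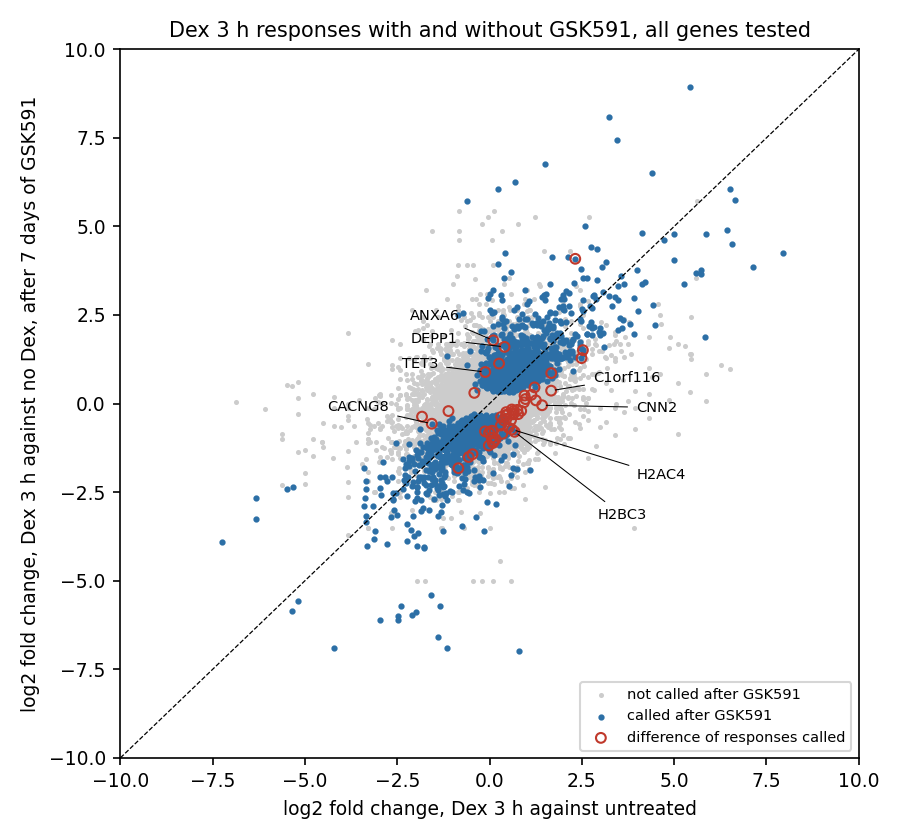
Log2 fold change 3 h after Dex in cells given GSK591 (vertical) against that without inhibitor (horizontal), one point per gene tested, blue where called after GSK591, with the line of equality dashed. The 51 red circles mark genes whose responses differ, most of them below the line, and 8 of these are named.

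The test of the difference itself called 51 genes, 0.223% of those tested, 9 with a higher response after GSK591 (0.0393%) and 42 with a lower one (0.183%), and 2035 genes had an unadjusted p under 0.05 (edgeR). Leaving out a library gave 10 calls without untreated replicate 1, 11 without Dex-alone replicate 2, 11 without GSK591 replicate 2, 17 without GSK591 replicate 1, 20 without GSK591 and Dex replicate 2, 35 without untreated replicate 2, 52 without Dex-alone replicate 1 and 125 without GSK591 and Dex replicate 1, while DESeq2 gave 45 and scaling by total counts 0 (with 914 genes at an unadjusted p under 0.05). The calls described next were therefore lost under that scaling. CCN1, the YAP target above, had the smallest adjusted p of those named (difference -1.17, SE 0.170, adjusted p = 0.00023), and its call held without each of the 8 libraries in turn. It read 51.1 and 50.0 CPM with GSK591, 27.5 and 22.7 CPM after Dex, 24.5 and 26.4 CPM in untreated cells and 27.1 and 29.9 CPM after Dex alone. The libraries with GSK591 and no Dex stood apart from the other groups, whose levels lay between 22.7 and 29.9 CPM. FEN1 changed by 1.13 after GSK591 and 0.26 with Dex alone (difference 0.87, SE 0.170, adjusted p = 0.00884), but the corresponding difference for its Dex response after GSK591 in the authors' deposited tables was -0.01, and its exons overlap those of other genes on both strands; its call was lost without untreated replicate 1, Dex-alone replicate 2 or either GSK591 replicate. ANXA6, a calcium-dependent membrane-binding protein, read 3.37 and 3.62 CPM with GSK591, 10.9 and 13.2 CPM after Dex, and 5.78 and 3.73 against 5.00 and 5.13 CPM without inhibitor; the difference of 1.69 lost its call in 6 of the 8 fits with a library left out, and DESeq2 gave no adjusted p for it. CACNG8, an auxiliary subunit of AMPA receptors, fell by 0.57 after GSK591, a call lost without GSK591 replicate 2, and by 1.57 with Dex alone. H2AC4 and H2BC3, replication-dependent histone genes whose differences lost the call in 4 and 6 of 8 fits with a library left out, lay at 6.95 and 6.19 and at 2.54 and 2.75 CPM after GSK591 and Dex, against 28.3 and 36.8 and 16.7 and 13.8 CPM after Dex alone. Untreated cells had 19.7 and 22.8 CPM of H2AC4 and 8.79 and 10.3 CPM of H2BC3, and GSK591 alone 10.0 and 11.9 CPM and 4.77 and 4.42 CPM, so the histone genes were low in GSK591 before Dex as well.

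MS023 blocks type I arginine methyltransferases such as PRMT1. After 7 days of it, the same 3 h of Dex called 2543 genes (11.1%), 1310 higher (5.72%) and 1233 lower (5.38%). Of those that rose there, 696 (53.1%) also rose after GSK591, with a median of 0.67, and of those that fell 554 (44.9%) fell, with a median of -0.59. Over all genes tested, 5.39% rose and 4.46% fell after GSK591. The authors' deposited tables and the counts could be compared for 15220 genes. Of the 1709 called after GSK591 among them, 1572 (92.0%) had the same sign in the difference of the authors' fold changes. Those tables are of the same series, so this share is no independent check. The share with the same sign over all 15220 genes was not taken. For NR3C1 that difference was -1.17, for CXCL8 -1.78 and for DIO2 -4.55.

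Several genes described share exon positions with another gene in GENCODE 29, so that reads could be split or shared between them. They include PER1, IRAK3, TGFB2, MT1X, HSPA8, FXYD3, CLDN7, SERPINA3, MMP2, FEN1, IFIT2, PRMT1 and CACNG8 on the same strand, and TSC22D3, GUCY2D, DIO2, GLI1, LIF, JUNB, CEBPB, CRY1, ANGPTL4, SLC7A11, GREM1, SMAD3, CDKN1A and PRMT5 on the opposite one, and the use of strand in counting is not given in the sources used here. Of the called genes 57.4% had no such overlap, against 56.6% of genes tested.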

How the data were processed

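PRO-seq libraries of A549 cells were compared by gene. Groups and replicate numbers came from the sample labels. The count table holds whole-number counts per gene as the authors deposited them, not normalised. Subread featureCounts 2.0.1 and the build hg38 are named in the submitters' processing notes; the counted feature and the use of strand are not given in the sources used here. From the tables the authors deposited for single contrasts to untreated cells, 3 were read. Per the file headers, their columns carry DESeq2 names; the log2 fold changes are those of the authors. The mean signal (baseMean) and the p-values that the authors deposited there were not reported. All 58780 gene identifiers matched GENCODE 29, which gave coordinates.

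The test was quasi-likelihood F in edgeR 4.0.16 (limma 3.58.1, R 4.3.3) with TMM scaling and robust fitting, in a single model of all 15 groups (30 libraries, residual degrees of freedom 15). A filter on low values, filterByExpr with a minimum count of 10 and a minimum total of 15, left 22919 genes, and p-values were adjusted by Benjamini-Hochberg over them. Standard errors are log2 fold changes divided by the root of the F statistic. The procedure was run on counts simulated from the fitted model with its own estimate of spread. Such a run cannot show how the test behaves if replicates are technical, and its outcome is not given here. Alternatives were DESeq2 1.42.0, edgeR with the size factors of DESeq2, scaling by total counts alone, testing without a filter, the compared groups alone, a replicate block, no mitochondrial or ribosomal RNA genes, and each library left out. Permutation of 2 against 2 libraries cannot reach the threshold of 0.05. Low counts limit precision, and counts without molecular identifiers are not independent molecules.

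The compared groups and the 29 gene lists were chosen with earlier results of these data known. Named genes are NR3C1, PRMT5, FKBP5, TSC22D3 and PER1; the 8 largest rises and falls among called protein-coding genes averaging 5 CPM or more and libraries apart; up to 4 called members per list (or the largest changes by value, to make 2); the 4 largest differences of responses in each direction; and the 3 largest rises and falls from 15 min to 3 h. Other members of lists are given by value only. A gene that the rule names is not reported here. The rule's promoter part found no gene, so other called genes with the motif were shown.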

Additional observations from a re-analysis of the deposited data

Results flagged for a closer look

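The differences between the Dex responses with and without GSK591 that passed the test are listed here for genes chosen by rule, as log2 differences (edgeR, 8 libraries). Under scaling by total counts no gene's call was kept. Higher responses after GSK591 were those of ANXA6 (1.69), DEPP1 (1.19), TET3 (1.01), CACNG8 (1.00) and FEN1 (0.87). Lower responses were those of H2BC3 (-1.48), CNN2 (-1.47), H2AC4 (-1.34), C1orf116 (-1.30) and CCN1 (-1.17). DEPP1, a gene induced by progesterone and by FOXO factors, read 4.65 and 5.90 CPM with GSK591 and 15.8 and 16.0 CPM after Dex, against 6.23 and 7.36 CPM and 9.46 and 8.55 CPM without inhibitor. TET3, a DNA demethylase, read 9.65 and 10.7 CPM and 18.1 and 19.6 CPM with GSK591, and 16.6 and 15.4 CPM and 14.7 and 14.8 CPM without. CNN2, an actin-binding calponin, read 10.5 and 9.65 CPM and 8.27 and 11.2 CPM with GSK591, and 5.12 and 4.74 CPM and 12.6 and 13.8 CPM without. C1orf116, an androgen receptor target of unclear function, read 12.8 and 12.3 CPM and 17.4 and 14.9 CPM with GSK591, and 4.23 and 3.93 CPM and 12.9 and 13.1 CPM without. Of 8 fits with a library left out, DEPP1 and TET3 lost the call in 7, ANXA6, CNN2, C1orf116 and H2BC3 in 6, H2AC4 and FEN1 in 4 and CCN1 and CACNG8 in 0. DESeq2 gave no adjusted p for ANXA6, DEPP1, TET3, CNN2, C1orf116 and H2BC3. For CNN2 and C1orf116 the response after GSK591 alone did not pass the test, with changes of -0.05 and 0.36.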

How the results depend on the processing

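The 2258 calls 3 h after Dex following GSK591 came to 1374 with DESeq2 and 1363 with total counts as the only scaling, and to 1201 to 1609 with a library left out. The 3259 calls from 15 min to 3 h came to 2021 with DESeq2, 2093 with the compared groups alone and 1676 with total counts, and to 1414 to 2738 with a library left out. The 51 differences between responses came to 109 with no filter on low counts and 0 with total counts, and to 10 to 125 with a library left out. The 2410 calls with Dex alone came to 1522 with DESeq2 and 1259 with total counts, and to 1355 to 1664 with a library left out. With total counts, 79.9% of the calls from 15 min to 3 h and 81.9% of those with Dex alone were higher, against 56.6% and 58.1%. In the order above, the counts were 2288, 3275, 51 and 2436 without mitochondrial and ribosomal RNA genes. They were 2268, 3232, 51 and 2447 in edgeR with the size factors of DESeq2. Both of these settings kept direction and side of the threshold for all 130 values of named genes. A fit with a library left out has fewer samples by construction; for the other settings the cause was not tested. With the replicate number as a block the counts were 2310, 3304, 59 and 2471, and the block changed no named gene's call; no label says that the numbers mark a shared culture, and the deviations of same-numbered libraries of the compared groups correlated with r = 0.139 across genes, the 2 pairs being too few to settle pairing. No called value changed sign, but the medians of 14 gene lists did under some alternative, 7 of them under total counts; none of these medians was beyond 0.17 in size. With DESeq2 the members called were 2 for replication, 1 for the MYC network, 5 for p53 targets and 0 for mitosis; with total counts they were 2 for replication, 3 for EGF receptor signalling and 1 for the MYC network, which had 5 with the compared groups alone. Among values of named genes under settings other than leaving out a library, 842 kept direction and side of the threshold, 56 lost the call, 1 gained it and 1 that was not called changed sign; for 8 values DESeq2 gave no adjusted p, and these are not counted. With a library left out 433 kept both, 124 lost the call and 3 that were not called changed sign. Genes with about 10 counts or fewer in a group are poorly determined.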

Other observations

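Of 1698 long intergenic RNA genes tested, 65 rose and 82 fell (8.66% called), and of 2241 antisense genes 76 rose and 71 fell (6.56%), both shares below the 9.85% called over all genes. The examples given here were chosen after their values were seen. AC026461.3 (chr16:56609501-56611375, minus strand), beside the metallothionein gene MT2A on the other strand, read 1.63 and 0.804 CPM without Dex, 14.2 and 11.9 CPM at 15 min and 18.5 and 24.1 CPM at 3 h, a log2 change of 4.09 (SE 0.253). It was also higher with Dex alone, by 2.32, and the difference between these responses passed the test (1.76, adjusted p = 0.0149, edgeR), a call lost under scaling by total counts and in 4 of 8 fits with a library left out. AL034417.3 (chr1:7998187-7999934, minus strand), close to ERRFI1, went from 1.16 and 1.88 CPM to 14.4 and 12.0 CPM, and AL121772.1 on chr20 from 2.21 and 1.61 CPM to 10.0 and 9.63 CPM. Whether reads from MT2A or ERRFI1, both called higher, were counted in AC026461.3 or AL034417.3 was not tested. AL034417.3 also shares exon positions with a gene on the opposite strand. LINP1, a noncoding RNA of DNA end joining, fell from 20.9 and 22.1 CPM to 3.20 and 4.24 CPM, and AC091173.1 from 22.2 and 24.3 CPM to 4.63 and 2.52 CPM. LINP1 shares exon positions with 2 genes on the same strand.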
